A study of Homo sapiens with 6 samples.

Results

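Caov-3 cells, an established human ovarian carcinoma line, that were given the antibody siltuximab for 4 h and then interleukin-6 (IL-6) at 30 ng/ml for 1 h were set against Caov-3 cells given IL-6 alone at 30 ng/ml for 1 h. These are 2 of the 6 arrays of the study, which also holds untreated Caov-3 cells and the same 3 conditions in SKOV-3, another ovarian carcinoma line. Each condition is 1 array carrying a pool of RNA from 3 flasks, so every difference is between single arrays, has no replicate check and is given with no p-value. Siltuximab (CNTO328) is a monoclonal antibody to IL-6, the labels used here do not state its dose, and cells given only the antibody were not analysed here. The genes described were those with at least 2 probe sets that agreed: a probe set was used if it carried 1 gene symbol and its log2 signal, averaged over both arrays, was at or above the mean of the medians of these arrays. A gene was taken if every used probe set lay in the same direction and at least 2 of them differed at least 1.5-fold. This gave 146 genes of 5962 with 2 or more used probe sets, and these values chose them, so their folds are descriptions. Precision is limited by there being 1 array a condition.

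IL-6 binds its receptor IL6R and then gp130 (IL6ST), the signalling chain shared by its cytokine family, and JAK kinases there phosphorylate STAT3. STAT3 enters the nucleus and induces early genes, among them SOCS3, which shuts off the receptor. Siltuximab binds IL-6 itself and keeps it from its receptor. Ovarian carcinoma cells often make IL-6 of their own. In epithelial and liver cells IL-6 is also known for acute phase and complement genes such as C3, while IFI6 belongs to the genes best known as targets of interferon. Against the IL-6 array the siltuximab array thus asks which transcripts differ when the antibody is present before IL-6 is added.

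Of the 146 genes, 141 (96.6%) were higher with siltuximab plus IL-6 than with IL-6, and 5 were lower. The higher genes made up 2.36% of the 5962 genes and the lower ones 0.0839%, which are the backgrounds fixed by the rule itself. A further 72 genes (1.21%) had used probe sets past 1.5-fold in opposite directions. The split depended on the scaling of the arrays: with quantile normalization it was 99 higher and 52 lower (65.6% higher), and with cyclic loess 104 and 52 (66.7%), and 88 and 87 of the 141 higher genes were found again. These scalings put the median fold of all genes at -0.10 and -0.11 on the log2 scale, against -0.03 as deposited. The split also depended on the filter on low signals: with none, it was 314 higher and 127 lower (71.2% higher). On simulated data a change put on the siltuximab array alone was found more often upward than downward by this rule. A change put on the IL-6 array alone was not simulated, so the part of this in the split was not tested. Just inside the threshold lay UNC93B1, XAF1 and TNPO3, whose second highest folds were 0.586, 0.592 and 0.594 on the log2 scale. Just outside lay ST3GAL3, C21orf58 and IL17RC at 0.585, 0.584 and 0.582, with 1.5-fold at 0.58.

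The higher genes were mostly genes that stood low on the IL-6 array. Of the 141, 110 were at least 1.5-fold below untreated with IL-6, and 31 were not. By the same median, 861 of all 12208 genes with a used probe set were that far below untreated with IL-6. On the siltuximab array 139 of the 141 were within 1.5-fold of untreated. One, TRABD, was above untreated by 0.73 on the log2 scale, and ST3GAL2, a sialyltransferase, stood at -0.62. Lying near untreated on the siltuximab array was not particular to the 141. By the member rule 17 of the 5962 genes were higher and 8 lower than untreated there, and the median log2 fold of the 5962 was -0.0007. The median log2 fold of the 141 genes was 0.88 for siltuximab plus IL-6 over IL-6, -0.86 for IL-6 over untreated and 0.01 for siltuximab plus IL-6 over untreated. The first pair of folds shares the IL-6 array, so a single low value there gives both. None of the 5 lower genes was 1.5-fold above untreated with IL-6. If a gene is placed only by the probe sets that passed 1.5-fold, a choice made after seeing the data, 131 of the 141 were low with IL-6 and 10 were not: BMERB1, CHROMR, ERAP1, FGFR1, LARP4, NDE1, NECTIN2, OAS1, PROSER3 and SLC60A2.

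**Figure D1:**
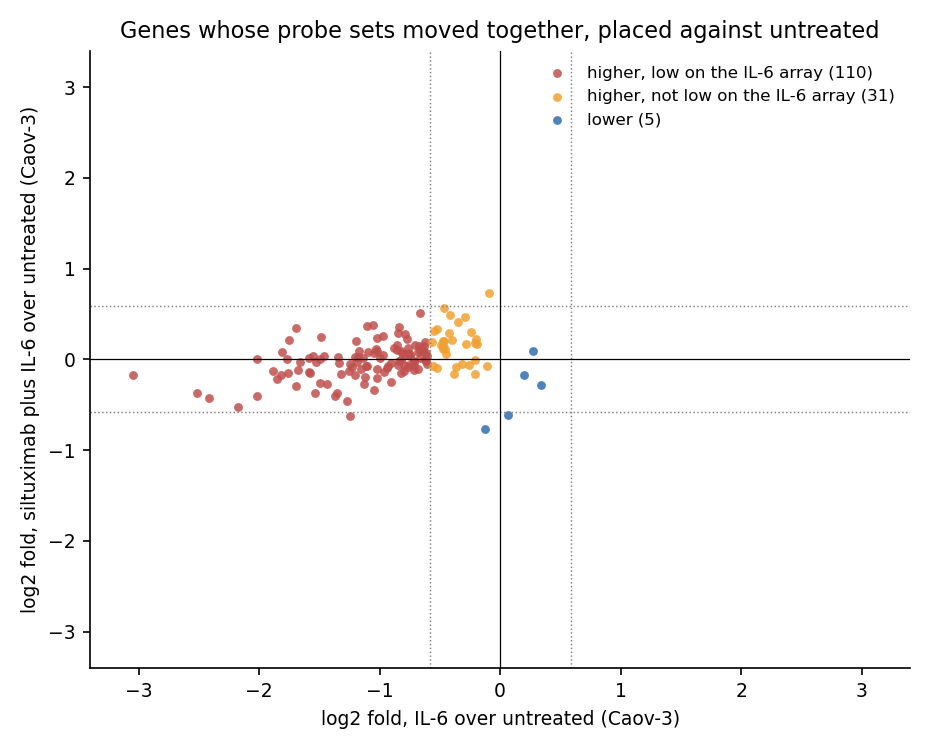
Each point is 1 of the 146 genes, with the log2 fold of IL-6 over untreated on the x axis and of siltuximab plus IL-6 over untreated on the y axis, both medians over the gene's used probe sets in Caov-3; dotted lines mark 1.5-fold. The 110 genes low on the IL-6 array spread to the left down to -3.05 while staying between -0.62 and 0.51 on the y axis, and TRABD at 0.73 is the 1 gene above the upper dotted line.

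The same rule was applied to 3 other pairs of arrays. IL-6 over untreated in Caov-3 gave 27 higher genes (0.453%) and 172 lower ones (2.88%). Siltuximab plus IL-6 over untreated in Caov-3 gave 17 higher (0.285%) and 8 lower (0.134%). In SKOV-3, siltuximab plus IL-6 over IL-6 gave 4 higher (0.0675%) and 19 lower (0.321%) of 5925 genes. These 3 Caov-3 comparisons share arrays with each other, and the SKOV-3 one shares none with them.

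**Figure D2:**
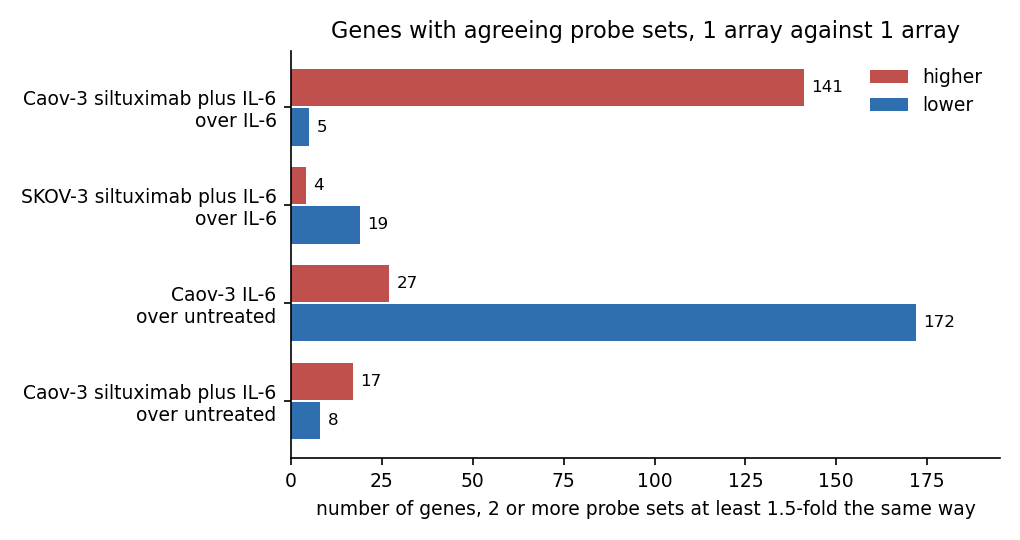
Bars give the number of genes with at least 2 used probe sets 1.5-fold or more apart in the same direction and none opposed, for 4 pairs of arrays, higher in red and lower in blue. The 141 higher genes of siltuximab plus IL-6 over IL-6 and the 172 lower genes of IL-6 over untreated, both in Caov-3, stand beside counts of 4 to 27.

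The Caov-3 IL-6 array also stood apart on the ACTB and 28S control probe sets. The 5' to 3' signal ratio of the ACTB control was 0.494 there and 0.643 to 0.767 on the other 5 arrays, while that of GAPDH was 1.05, inside the range of 0.957 to 1.07. The control for the central stretch of 28S ribosomal RNA read 887, against 2382 to 3307 elsewhere. The poly-A controls added before labelling (12 probe sets) had a median signal of 2031, against 1458 on the Caov-3 siltuximab array and 1185 to 1873 on the other 5 arrays, the 1873 being that of the SKOV-3 IL-6 array. Across genes, the siltuximab array correlated with untreated at r = 0.976 and with IL-6 at 0.967, and the IL-6 array correlated with untreated at 0.962. These values move with the excess of higher genes, and their part in it was not tested. The epithelial label held: all 16 epithelial and ovarian carcinoma markers were above the median on each of the 3 Caov-3 arrays, with summed signals of 139683 untreated, 142502 with IL-6 and 135078 with siltuximab plus IL-6. Of 8 leukocyte markers 2, 3 and 2 were above it, and of 10 fibroblast and endothelium markers 2 on each. In RNA of whole cultures, a change in the number of cells that make a transcript and a change in the amount per cell cannot be told apart.

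SOCS3, C3 and IFI6, taken as marker genes of this comparison with earlier results known, are not among the 146, because C3 and IFI6 have 1 used probe set each and those of SOCS3 disagree. SOCS3 was at 594 untreated, 845 with IL-6 and 625 with siltuximab plus IL-6 on the probe set of strongest signal, a log2 fold of -0.42 for siltuximab plus IL-6 over IL-6. A second probe set was at 142, 143 and 107 (-0.37), and the third at 154, 72.3 and 144 (0.85). The first was highest with IL-6, the second lowest with siltuximab plus IL-6 and the third lowest with IL-6, so the feedback inhibitor of the pathway has no single direction here. C3, the central complement protein, was at 5527 untreated, 7759 with IL-6 and 5433 with siltuximab plus IL-6, a log2 fold of -0.51. Of the 2247 probe sets in its group when used probe sets were ranked by signal and divided into 10 equal groups, 0.623% had a lower fold than C3. For the first 2 SOCS3 probe sets, 5.48% and 12.8% of their own groups had a lower fold. The third SOCS3 probe set lay in the dimmest group, where 85.8% had a lower fold and folds were most scattered. IFI6, an interferon-induced mitochondrial protein, was at 4495, 428 and 6350, a log2 fold of 3.84 over IL-6 and of 0.50 over untreated.

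Of the other steps of the pathway, STAT3 was lower with IL-6 and higher again with siltuximab plus IL-6 on all 3 of its used probe sets, while the ligand differed little and gp130 was split between probe sets. IL6 itself was at 3703 untreated, 3500 with IL-6 and 3656 with siltuximab plus IL-6, the transcript of the ligand the antibody binds. IL6R had no used probe set. IL6ST, the gp130 chain, was at 4206, 3857 and 3737 on one probe set, at 1169, 1272 and 1213 on another and at 112, 56.4 and 121 on the third, with log2 folds of -0.05, -0.07 and 0.91. STAT3 was at 2521, 832 and 1254 on its first probe set, at 1420, 526 and 726 on the second and at 784, 281 and 833 on the third. All 3 were lowest with IL-6 and higher with siltuximab plus IL-6 by 0.58, 0.45 and 1.51 on the log2 scale, and only the third was back at the untreated signal. Its median log2 fold of siltuximab plus IL-6 over untreated, -0.95, was the lowest of the 5962 genes. STAT3 missed the rule because its second highest fold was just under 1.5. PIM1, a STAT3-induced survival kinase, was at 354, 302 and 221 (-0.42).

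Of the 22 measured genes on the list of IL-6 and STAT3 early response genes, 0 were 1.5-fold higher and 0 lower by the median of their used probe sets, where 6.58% of all 12208 genes with a used probe set were higher and 1.83% lower. The median log2 fold of the list was 0.03, beside -0.03 over all genes, and under quantile normalization and cyclic loess it was -0.01 and -0.04, with 1 gene lower in each, and without probe sets that may cross-hybridise (_x_at or _s_at) 1 of 16 was higher. For IL-6 over untreated in Caov-3, 0 of the 22 were 1.5-fold higher and 2 lower, beside 537 and 861 of all 12208 genes. The list median there was -0.02, so the list held no 1.5-fold rise with IL-6 that siltuximab could be seen to lower. MUC1, an epithelial mucin that STAT3 can induce, was at 8733, 11761 and 8857 on one probe set (-0.41), at 1565, 2499 and 1649 on another (-0.59) and at 16584, 17437 and 16391 on the third (-0.09). Each of the 3 was highest with IL-6 and near untreated with siltuximab plus IL-6, and 1 of them passed 1.5-fold, where the rule asks for 2. Of the 13 measured complement and acute phase genes, 0 passed in either direction, and under cyclic loess 1 passed as lower. Their median was -0.12, and 9 were below 0, as were 6760 of all 12208 genes.

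**Figure D3:**
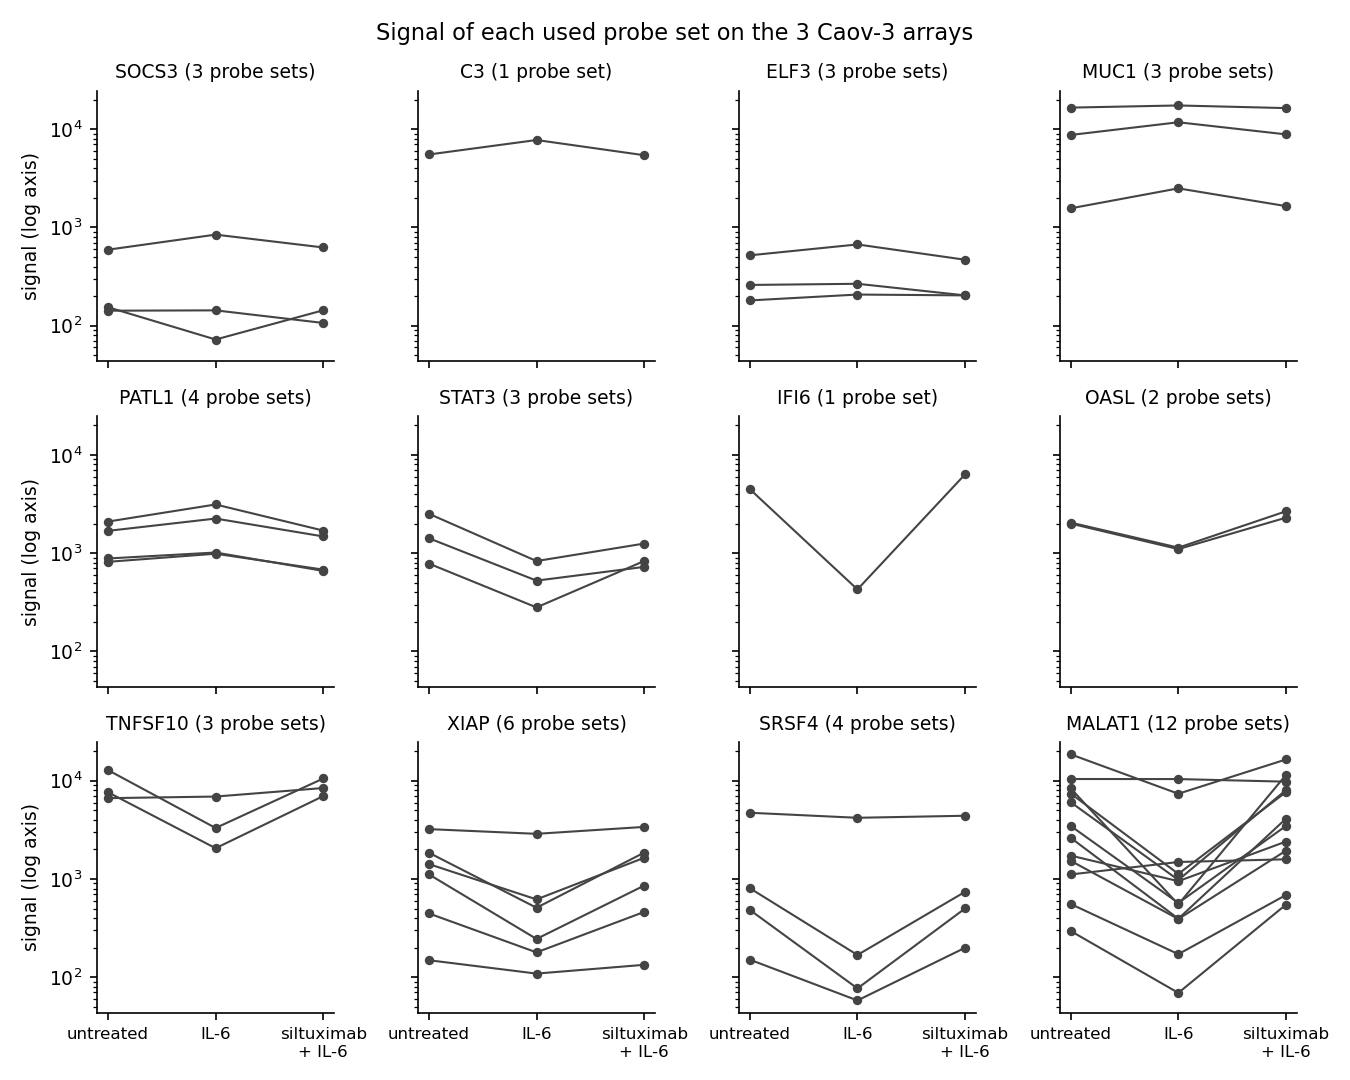
Each panel is 1 gene and each line 1 used probe set, with its signal (log axis) on the untreated, IL-6 and siltuximab plus IL-6 arrays of Caov-3. C3 and the MUC1 probe sets peak with IL-6, the 3 STAT3 probe sets and IFI6 dip with IL-6, and in SRSF4, XIAP, TNFSF10 and MALAT1 some probe sets dip while others stay level.

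The 5 lower genes had moderate folds. PATL1, a scaffold of mRNA decapping, was lower on all 4 of its used probe sets, 3 of them at least 1.5-fold, and its strongest signals were 2099 untreated, 3133 with IL-6 and 1699 with siltuximab plus IL-6. The other PATL1 probe sets were at 1688, 2253 and 1482, at 884, 1017 and 660, and at 817, 988 and 681, so that all 4 were highest with IL-6 and lowest with siltuximab. Its median log2 fold was -0.60. RANBP1, a cofactor of Ran in nuclear transport, was at 272, 190 and 65.1 on one probe set and 183, 206 and 100.1 on another, but at 24314, 22315 and 22300 on the third, a log2 fold of 0.00 for siltuximab plus IL-6 over IL-6. ZNF554, a zinc finger protein, was at 166, 116 and 64.1 and at 104, 165 and 98.5. FLYWCH1 and DOCK5, a guanine nucleotide exchange factor for Rac, had medians of -0.61 and -0.24. RANBP1 and ZNF554 were also below untreated, at -0.77 and -0.62.

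At a looser threshold of 0.32 on the log2 scale, 124 genes were lower and 333 higher, and 49 of the 124 were above untreated with IL-6 by as much. MUC1 was among these 49. ELF3, an epithelial transcription factor, was among the other 75: its 3 probe sets had log2 folds of -0.37, -0.50 and -0.03. Genes with folds in the lower direction on their single used probe sets included LIF, a cytokine of the IL-6 family, at 545, 614 and 409 (-0.57), and NFKBIA, the inhibitor of NF-kB, at -0.45.

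Among the 110 genes that came back from a low value, TMEM259 had the largest median log2 fold, 2.87. This membrane protein of the endoplasmic reticulum was at 480, 40.0 and 478 on one probe set and at 597, 57.1 and 524 on another, untreated, with IL-6 and with siltuximab plus IL-6. Both IL-6 values were below the median of the IL-6 array, 72.6, so these probe sets passed the filter only through the siltuximab array. The remaining probe set, the one with the highest untreated signal, was at 626, 490 and 555, a log2 fold of 0.18. DNASE2, the lysosomal DNA nuclease, was at 2135, 440 and 1540 and at 1204, 158 and 990, and both of its probe sets were low with IL-6 (2.15). TRMT2B, a mitochondrial tRNA methyltransferase, was at 114, 28.1 and 193 and at 536, 137 and 537 (2.04). FAM111B, a protease linked to DNA replication, was at 356, 112 and 407 and at 287, 60.8 and 345 (1.97).

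COPA, a coat protein of transport vesicles, was at 2296, 615 and 2028 and at 501, 98.3 and 316 (1.61). GTSE1, a microtubule-associated protein of dividing cells, had 4 used probe sets, all low with IL-6 and higher with siltuximab plus IL-6 by 1.27 to 1.57. ALYREF, an mRNA export adaptor, was at 3795, 1282 and 3944 and at 1925, 736 and 1960. In these genes every used probe set passed 1.5-fold, as it did in LOC100190986, CEBPZOS, UBXN7 and LMLN, with medians of 1.98, 1.78, 1.65 and 1.60. In MPHOSPH8, TAF8 and WNK1 it did not. WNK1, a kinase that controls ion transport, had 5 used probe sets, of which those with the strongest untreated signals, 4231 and 3843, had log2 folds of 0.21 and 0.47, and the other 3 had 1.71 to 2.46. MPHOSPH8 and TAF8 had medians of 1.86 and 1.84 and lowest folds of 0.12 and 0.02.

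TNFSF10, TNFRSF10A and XIAP also came back from a low value, of which TNFRSF10A and XIAP were named after their values were seen. TNFSF10, the death ligand TRAIL, was at 12836, 3303 and 10539 on one probe set, at 7644, 2056 and 6977 on another and at 6645, 6901 and 8429 on the third. TNFRSF10A, one of its receptors, was at 386, 126 and 425, at 199, 57.4 and 157 and at 349, 282 and 289. XIAP, an inhibitor of caspases, had 6 used probe sets: 4 were higher by 1.29 to 1.83 on the log2 scale and the others by 0.23 and 0.26. In each of these 3 genes some probe sets were low with IL-6 while another was near its untreated signal.

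Across the 141 higher genes, every used probe set passed 1.5-fold in 50, and 91 had at least 1 that did not. In 38 genes a used probe set lay within 0.1 of 0 on the log2 scale. The gap between a gene's highest and lowest probe set fold had a median of 1.06 and reached 3.57. The probe set with the highest untreated signal had a median log2 fold of 0.62, and the other probe sets one of 0.98. It gave the smallest fold in 83 of the 141 genes, and passed 1.5-fold in 74. Over all 5962 genes the same medians were -0.07 and 0.06, and it gave the smallest fold in 3090. Folds were more scattered at low signal: in the dimmest of the 10 groups of used probe sets 22.7% were 1.5-fold higher and 7.17% lower, and in the brightest 1.29% and 0.223%. Of the 471 used probe sets of the 146 genes, 56 were below the median of the IL-6 array and 2 below that of the siltuximab array. The 56 belonged to 45 of the 146 genes. Of the 50 genes whose probe sets all passed, 45 were low on the IL-6 array.

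**Figure D4:**
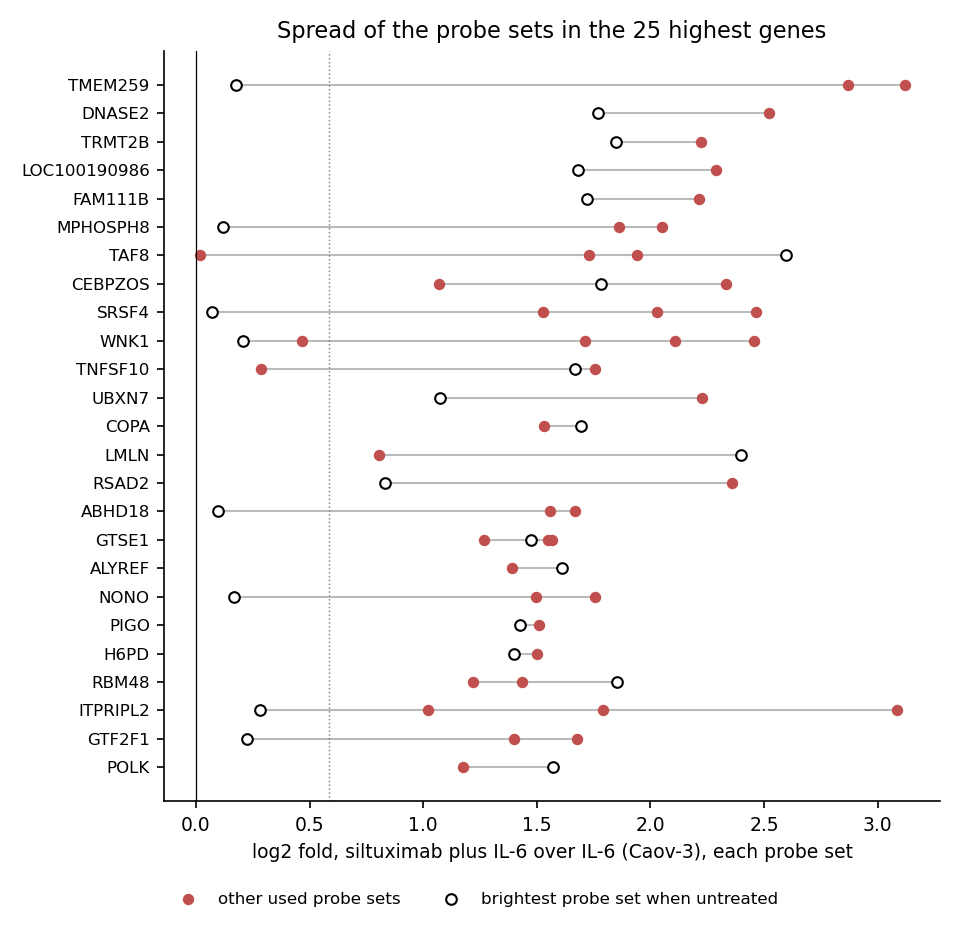
Each row is 1 of the 25 higher genes of largest median fold, each point a used probe set with its log2 fold of siltuximab plus IL-6 over IL-6 in Caov-3, and the open point is the probe set with the highest untreated signal. For TMEM259, MPHOSPH8, SRSF4, WNK1, ABHD18, NONO, ITPRIPL2 and GTF2F1 the open point lies left of the dotted 1.5-fold line while the other probe sets reach 1.02 to 3.12, apart from 1 of WNK1 at 0.47; for DNASE2, TRMT2B, FAM111B and GTSE1 all points lie together on the right.

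The 31 higher genes that were not low on the IL-6 array had smaller folds, with a median of 0.61 and a range of 0.14 to 0.90 on the log2 scale. Every one of them was nevertheless below untreated with IL-6, by -0.09 to -0.57. PROSER3 was at 270, 266 and 461 on one probe set and at 157, 82.0 and 189 on the other (0.90). TRABD was at 475, 137 and 372, at 507, 714 and 855 and at 77.3, 71.6 and 142, the one gene of the 141 that ended 1.5-fold above untreated, although its 3 probe sets took different courses. ERAP1, an aminopeptidase that trims peptides for MHC class I, was at 849, 594 and 1061, at 361, 241 and 398 and at 153, 96.5 and 200. All 3 ERAP1 probe sets were lowest with IL-6 and highest with siltuximab plus IL-6.

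DAPP1, an adaptor of phosphoinositide signalling, was at 485, 332 and 502, at 160, 83.5 and 206 and at 241, 167 and 323 (0.89). MDM2, the ubiquitin ligase for p53, had 5 used probe sets with log2 folds of 0.24 to 0.87. FGFR1, a growth factor receptor, was at 90.5, 67.5 and 126, at 140, 100.4 and 220 and at 116, 143 and 152, and its fold was 0.08 when the higher of both arrays set the filter. SFXN3 and SLC60A2 had medians of 0.77 and 0.75. EGFR, named after its values were seen, was at 4657, 812 and 4429 on one of its 5 used probe sets and at 4655, 4919 and 5091 on another.

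The list of interferon-stimulated genes had 30 measured genes. With siltuximab plus IL-6, 7 were at least 1.5-fold higher than with IL-6 by their median fold and 0 lower. These stand beside 6.58% and 1.83% of all genes. Of the 30, 25 lay above 0, as did 5448 of all 12208 genes. The list's median log2 fold was 0.15, against -0.03 over all genes, and 0.21 and 0.26 under quantile normalization and cyclic loess, where 8 were higher. The list was chosen with earlier results of these data known, so the count is a description. OASL, OAS1, RIGI and XAF1 are among the 146 genes. OAS1, which makes the activator of RNase L, was at 7928, 5668 and 8673 on one probe set and at 5095, 4099 and 6219 on the other (0.61). OASL, its relative, was at 2003, 1101 and 2301 and at 2050, 1139 and 2671 (1.13). In both genes each probe set was lowest with IL-6 and highest with siltuximab plus IL-6, and the values with siltuximab were within 1.5-fold of untreated.

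RIGI, the cytosolic sensor of viral RNA, was at 1151, 527 and 1215, at 1404, 768 and 1696 and at 1331, 1217 and 1484 (1.13). XAF1, an antagonist of XIAP, was at 1844, 208 and 1847 on one probe set, at 5926, 4188 and 6320 on another and at 315, 101 and 161 on the third (0.59). OAS3 was at 7814, 6282 and 9364 on one probe set, just under 1.5-fold, and at 217, 38.9 and 388 on the other, so it is not among the 146. IFIT3 was at 4170, 682 and 2430 and at 10885, 10250 and 13552. Outside the list, RSAD2 (viperin) was at 1481, 770 and 1382 and at 1408, 297 and 1597. EIF2AK2, the kinase PKR, was at 3598, 1226 and 4133, at 625, 263 and 642 and at 8239, 9120 and 9486. CGAS, the sensor of cytosolic DNA, was at 224, 171 and 279 and at 262, 53.5 and 241. OAS1, IFIT3, EIF2AK2 and CGAS were named after their values were seen.

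The start regions of 4 of these genes are shown because genes of the interferon response share a known element bound by ISGF3 and IRF factors. Each sequence holds the 250 bases before the first listed start of the gene, from RefSeq on GRCh38.p14, written 5' to 3' on the strand of the gene, with matches to GAAANNGAA on either strand in capitals.
IFI6 (chr1:27672193-27672442, minus strand): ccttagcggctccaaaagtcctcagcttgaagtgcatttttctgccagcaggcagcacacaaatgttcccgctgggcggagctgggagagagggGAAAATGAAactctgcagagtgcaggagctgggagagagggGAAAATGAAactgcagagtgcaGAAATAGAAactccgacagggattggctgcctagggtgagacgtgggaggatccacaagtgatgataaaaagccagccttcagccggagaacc
OAS3 (chr12:112938224-112938473, plus strand): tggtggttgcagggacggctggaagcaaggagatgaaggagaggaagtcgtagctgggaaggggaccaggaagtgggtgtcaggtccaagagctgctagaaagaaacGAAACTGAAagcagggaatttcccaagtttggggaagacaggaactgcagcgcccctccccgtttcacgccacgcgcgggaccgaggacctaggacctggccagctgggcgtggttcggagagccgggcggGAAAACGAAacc
RSAD2 (chr2:6865635-6865884, plus strand): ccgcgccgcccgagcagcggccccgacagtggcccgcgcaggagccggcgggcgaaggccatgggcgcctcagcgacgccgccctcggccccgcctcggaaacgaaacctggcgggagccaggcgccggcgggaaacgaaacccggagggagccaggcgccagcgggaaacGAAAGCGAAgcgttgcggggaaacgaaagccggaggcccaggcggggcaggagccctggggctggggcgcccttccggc
TNFSF10 (chr3:172523431-172523680, minus strand): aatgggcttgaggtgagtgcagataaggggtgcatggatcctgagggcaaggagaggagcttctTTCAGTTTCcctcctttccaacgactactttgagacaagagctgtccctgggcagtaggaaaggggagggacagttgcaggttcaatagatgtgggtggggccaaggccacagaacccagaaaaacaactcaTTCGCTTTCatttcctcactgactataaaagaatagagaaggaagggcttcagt
IFI6 held 3 matches, at 156 to 148, 115 to 107 and 93 to 85 bases before the start. OAS3 held 2, the nearer at 12 to 4 bases, RSAD2 1 at 79 to 71 bases, and TNFSF10 2, both on the opposite strand and the nearer at 54 to 46 bases. IFIT3 held 2, and the windows of OAS1, XAF1 and EIF2AK2 held no match to this pattern. The pattern allows only the spacing NN, so related spellings such as gaaacgaaa, present in the OAS1 and RSAD2 windows, were not counted.

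Entries were found for 113 of the 141 higher genes and 23 of the 30 list genes. GAAANNGAA, searched on both strands, was in 16 of the 23 list windows (69.6%) and in 12 of the 113 higher genes (10.6%). It was in 5.29% of the 4988 windows of genes with 2 or more used probe sets and in 7.06% of all 27305 windows. The palindrome TTCCNGGAA that STAT3 can bind was in 0 of the 113, in 1.2% of the 4988 and in 1.01% of all windows. Its looser form TTCNNNGAA, which includes it, was in 5 of the 113 (4.42%), in 5.55% of the 4988 and in 6.78% of all windows. In the interferon list TTCCNGGAA was in 2 of the 23 windows (8.7%) and TTCNNNGAA in 5 (21.7%). The SOCS3 window, before its first listed start, held none of the 3. Other starts of SOCS3 were not searched, so this does not show that the gene lacks such a site. A match is a description of letters in this window only.

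**Figure D5:**
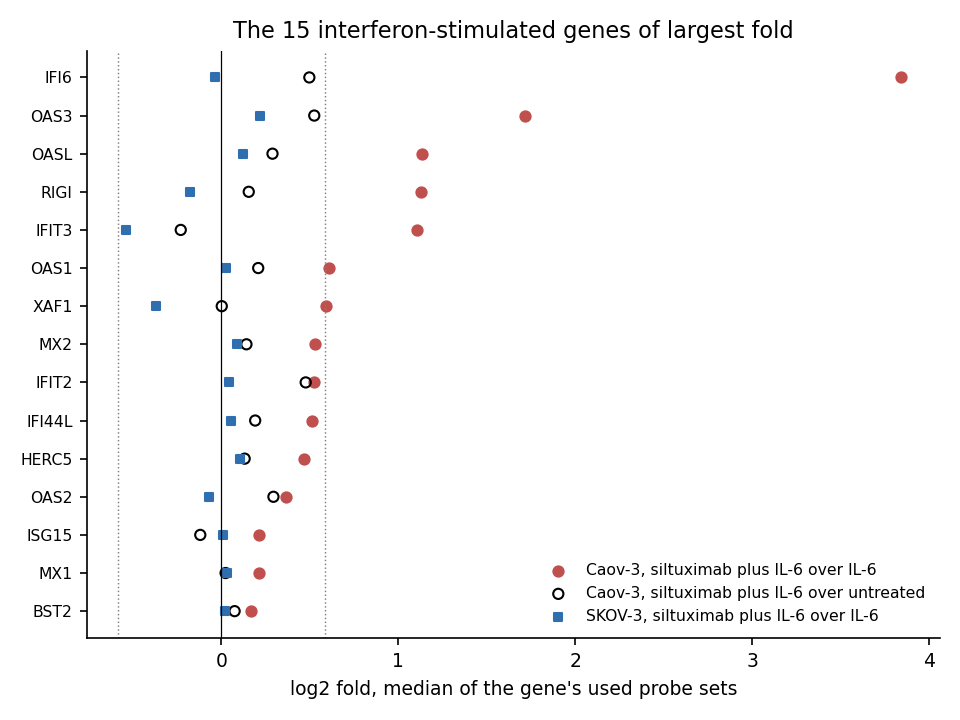
The 15 interferon-stimulated genes of largest fold, with the log2 fold of siltuximab plus IL-6 over IL-6 in Caov-3 (red), of siltuximab plus IL-6 over untreated in Caov-3 (open) and of siltuximab plus IL-6 over IL-6 in SKOV-3 (blue squares), each the median of the gene's used probe sets; dotted lines mark 1.5-fold. IFI6 stands out at 3.84, 7 red points are past the line, and all open points and blue squares lie within it.

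The longest list held genes of RNA splicing and nuclear RNA binding. Of 48 measured, 8 were 1.5-fold higher and 0 lower, beside 6.58% and 1.83% of all genes, with a list median of 0.08 on the log2 scale. The number was 8 under quantile normalization and under cyclic loess as well. SRSF4, a serine and arginine-rich splicing factor, was at 4721, 4195 and 4401 on its strongest probe set, a log2 fold of 0.07, and at 806, 168 and 741, at 485, 76.9 and 501 and at 151, 58.0 and 200 on the others. NONO, a paraspeckle protein, was at 22149, 16991 and 19072, at 9178, 2534 and 7181 and at 7097, 1813 and 6164. U2AF1, which reads the 3' splice site, was at 7452, 4563 and 5099, at 448, 208 and 490 and at 198, 65.1 and 153. In these 3 genes the probe set of strongest signal had the smallest fold. The others were low with IL-6 and near untreated with siltuximab plus IL-6. The strongest U2AF1 probe set was also low with IL-6, and it stayed below untreated with siltuximab plus IL-6. TRA2A and TAF15 also belonged to the 146, with medians of 0.95 and 1.14. U2AF1, TRA2A and TAF15 were named after their values were seen.

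MALAT1, a nuclear long non-coding RNA on the same list, had 12 used probe sets and the widest range. On one it was at 8365, 552 and 11478, a log2 fold of 4.34, and on another at 10411, 10396 and 9782, a log2 fold of -0.09, which keeps it out of the 146. The median was 2.42. MATR3, a protein of the nuclear matrix, was at 673, 38.1 and 821 on its single used probe set (3.93). Used probe sets without a single gene symbol were 1.5-fold higher in 21.8% and lower in 3.05%, and those with 1 symbol in 11% and 2.44%.

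The other lists are read beside the 6.58% of all genes that were higher and the 1.83% that were lower. Of 24 NF-kB subunits and targets 3 were higher (12.5%) and 0 lower, with a median of -0.08: REL, at 1361, 457 and 1046, at 422, 62.4 and 302 and at 942, 910 and 921, is one of the 146, NFKBIZ was at 741, 104 and 748 and at 3102, 2971 and 3694, and IL1A was at 0.69 on the log2 scale. NFKB2 was at 639, 251 and 675 on one probe set and at 241, 265 and 187 on the other, in opposite directions. Of 26 translation genes 2 were higher (7.69%, near the share of all genes), among them EIF5A, a translation elongation factor, at 10485, 3849 and 9627, at 4638, 2413 and 4324 and at 2441, 1553 and 2424. All 3 EIF5A probe sets were low with IL-6 only. Of 38 genes of mitosis and DNA replication 2 were higher (5.26%, also near that share), TOP2A and CCND1, at 0.90 and 0.68, each with a probe set at or below 0.07. Of 18 epithelial markers 2 were higher (11.1%): CDH1, E-cadherin, at 363, 35.5 and 214 on one probe set but 4840, 5094 and 4763 on the other, and CLDN3 at 0.59.

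In 6 of the remaining lists 0 genes passed in either direction: immediate early genes (25 measured), unfolded protein and integrated stress response (25), hypoxia and glycolysis (25), heat shock and chaperones (18), reference genes (12) and leukocyte markers (3). Under quantile normalization 1 immediate early gene and 1 leukocyte marker passed as lower, and under cyclic loess 1 leukocyte marker. Without probe sets that may cross-hybridise (_x_at or _s_at), 2 of 17 immediate early genes were lower and 1 of 7 reference genes was higher. Of 17 genes of cholesterol and fatty acid synthesis SCD, at 0.75, was the 1 higher. Of 3 fibroblast and endothelium markers PECAM1, with 1 used probe set at 1.38, was the 1 higher. ACTB and GAPDH, read by 3 used probe sets each, had medians of 0.05 and 0.11.

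SKOV-3 gave the same treatments with no shared array. There 1 of the 141 higher genes was 1.5-fold higher by the median of the same probe sets, beside 1.27% of the 5962 genes, 2 were 1.5-fold lower, beside 1.61%, and 51 lay above 0, beside 47.2%. The median log2 fold of the 141 genes was -0.08 there, against 0.88 in Caov-3. The gene higher in both was M1AP, a meiosis protein, with 0.67 in SKOV-3 against 1.14 in Caov-3. CPM, a carboxypeptidase, and RHBDL2, a rhomboid protease, were at -0.67 and -0.64 in SKOV-3. Across the 5962 genes the folds of the 2 lines had a Pearson correlation of -0.116 and a Spearman correlation of -0.115, over genes that share their arrays within a line. Of the 30 interferon-stimulated genes 0 were 1.5-fold higher and 0 lower in SKOV-3, with a median of 0.03. Of the 13 complement and acute phase genes 3 were 1.5-fold lower there and 0 higher, beside 408 and 379 of all 12208 genes. C3 was at -0.90 in SKOV-3 against -0.51 in Caov-3, and ELF3 at -0.82 against -0.37. SOCS3 was at -0.10 against -0.37 and IFI6 at -0.04 against 3.84. STAT3 went the opposite way, at -0.78 against 0.58. The difference between the lines was not tested, since each has 1 array a condition.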

How the data were processed

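RNA was measured on Affymetrix U133 Plus 2.0 arrays. The authors deposited linear signal intensities, 1 per probe set and array, made with Affymetrix Expression Console and MAS5 per the submitters' processing notes; the sources used here do not name their versions. The 2% trimmed mean was about 500 on every array. Groups came from the sample titles. Of 54675 probe sets, 62 were controls, 41091 carried 1 gene symbol, 1801 several and 11721 none; 41043 matched current gene records. A pseudocount of 17.06, the 20th percentile of values with 1 symbol, was added before log2, which understates folds of dim probe sets; no other normalization was applied. A gene's fold is the median over its used probe sets.

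Named genes were the 15 largest folds in each direction, up to 8 of each class against untreated, up to 4 of each gene list, those beside the threshold, and a fixed set; others are said to be chosen after their values were seen, as were ABHD18, GTSE1, ALYREF, ITPRIPL2, GTF2F1, MUC1, LIF, NFKBIA and MALAT1 where outside that rule. The members and the 16 lists were chosen with earlier results of these data known. With 1 array a group nothing was tested. Alternatives changed the pseudocount, filter, scaling (quantile or cyclic loess, limma 3.58.1 in R 4.3.3), probe set type and fold. The member rule was tested on simulated data. A change put on the siltuximab array alone was found more often upward than downward, since a lowered gene can drop below the filter. A change split over both arrays was found equally often, and a change on the IL-6 array alone was not simulated. Other work used Python 3.11.15, numpy 2.4.6, pandas 2.3.3 and matplotlib 3.10.9. Some genes and controls are left out.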

Additional observations from a re-analysis of the deposited data

Results flagged for a closer look

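CPM and RHBDL2 passed 1.5-fold in opposite directions in the 2 cell lines for siltuximab plus IL-6 over IL-6. CPM was at a log2 fold of 1.15 in Caov-3 and -0.67 in SKOV-3, where its 2 used probe sets gave 0.01 and -1.35. RHBDL2 was at 1.01 in Caov-3 and -0.64 in SKOV-3, where its probe sets gave -1.02 and -0.26. The SKOV-3 signals were low, between 9.89 and 86.2 over the 3 arrays for CPM's and RHBDL2's used probe sets. Each line has 1 array a condition, and the difference was not tested.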

How the results depend on the processing

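No paired analysis was possible because each group has 1 array, and for the same reason no array could be left out. Counts here are those of Caov-3 siltuximab plus IL-6 over IL-6 that moved by more than 1.5 times from 141 higher (110 low with IL-6 and 31 not) and 5 lower genes (0 high with IL-6 and 5 not) and 72 opposed. With a pseudocount of 1, 10 were lower (2 high with IL-6, 8 not). With the pseudocount at the median of all values, 2 were lower (2 not high) and 27 opposed. With the filter on the higher array, 21 were lower (6 and 15) and 149 opposed, and with both arrays above their medians 3 (3 not high) and 37. With the filter at the 75th percentile, 29 were higher (27 and 2), 2 lower (2 not high) and 5 opposed. With no filter, 314 were higher (189 and 125), 127 lower (42 and 85) and 765 opposed. With quantile normalization 52 were lower (16 and 36) and 114 opposed, and with cyclic loess 52 (14 and 38) and 115. Without probe sets that may cross-hybridise (_x_at or _s_at), 70 were higher (64 and 6), 1 lower (1 not high) and 35 opposed. At a log2 threshold of 0.32, 333 were higher (257 and 76), 124 lower (49 and 75) and 511 opposed. At 2-fold 54 were higher (40 and 14), 0 lower (0 not high) and 5 opposed. When probe sets that did not pass were ignored, 339 were higher (202 and 137) and 9 lower (9 not high). Placed by the passing probe sets alone, 10 higher genes were not low. The higher genes outnumbered the lower ones under each of these settings. CDH1 turned to -0.10 with both arrays above their medians and with the filter at the 75th percentile, where its dimmer probe set was left out. TMEM259 fell to 0.18 under both filters and without cross-hybridising probe sets. The cause of the other moves was not tested. Low signal limits the dim probe sets most: the robust SD of the folds was 0.53 in the dimmest of 10 groups by signal and 0.16 in the brightest.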
